A study of Mus musculus with 17 samples.

Results

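Carbonic anhydrases are the enzymes that interconvert carbon dioxide and bicarbonate. Of the 16 mouse carbonic anhydrase genes listed among 35896 gene IDs, 9 are described here: Car2, Car3, Car5b, Car6, Car8, Car9, Car12, Car13 and Car14. They were picked by name as a family, around Car6, because Car6 showed the largest rise, among genes of at least 10 CPM whose libraries did not overlap within either line, when neratinib was added to tumour organoid conditioned medium. Neratinib is an irreversible inhibitor of the ERBB receptor kinases. That choice used measured values, so the difference between conditioned medium with and without neratinib is given for every member as a description, with no test, and Car6 is given no test of CM or CM plus neratinib against control.

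RNA sequencing had been done on 17 libraries of wild-type C57BL/6J mouse pancreatic stellate cells, the fibroblast precursors of the pancreas, from the lines PSC4 (9 libraries) and PSC5 (8 libraries). All cells lay in Matrigel, a basement membrane gel, and the treatments lasted 4 days. The groups were control medium (5 libraries), control medium with TGF-beta (20 ng/mL), a cytokine that turns stellate cells into contractile myofibroblasts (4 libraries), conditioned medium of pancreatic tumour organoids, here CM (4 libraries), and CM with 300 nM neratinib (4 libraries). No group held a neratinib library without CM, so an effect of neratinib can be read only on top of CM. Libraries of 1 line and number share a passage in the labels (PSC4 replicates 1, 2 and 3 are passages 23, 24 and 25, and PSC5 replicates 1 and 2 are passages 27 and 28). The libraries come from 2 lines only, and nothing in the labels says that they came from separate animals, so p-values measure the spread between these cultures.

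Each carbonic anhydrase has its own place in the cell. Car2 and Car13 are soluble enzymes of the cytosol, Car3 is the slow cytosolic form of muscle and fat, and Car5b works in the mitochondrial matrix. Car6 is the secreted form, known from saliva and milk, and a shorter stress-inducible form that stays inside the cell has been described in mouse. Car8 has lost the zinc-binding histidine and has no catalytic activity, but binds the inositol trisphosphate receptor. Car9, Car12 and Car14 span the plasma membrane with the active site outside, and Car9 is a widely used marker of hypoxia. In pancreatic tumours such enzymes are studied for the export of acid, together with bicarbonate and lactate transporters.

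Library totals lay between 22168960 and 29421451 counts, and 3 counts in a library correspond to 0.1006 to 0.1375 CPM, the count scaled to the library's normalised total. Summed markers of fibroblasts and stellate cells reached 4503 to 20619 CPM over all libraries, with 11 of their 12 genes past the filter on low counts. The 8 acinar markers summed to at most 0.388 CPM, and none passed that filter. Epithelial markers were raised in some CM libraries, and their values are given beside Car8 and Car9. On the third principal component (14.87% of the variance) the 3 libraries labelled PSC4 replicate 1 (1 each of control, CM and CM plus neratinib) lay between -36.99 and -1.764, beside the libraries of PSC5 (-36.22 to 3.6), while the other PSC4 libraries lay between 19.75 and 56.79. Member results that change without these 3 libraries are given both ways. For the gene lists, the other carbonic anhydrases and the medium code, whether results change without them was not tested. Interactions with the line were fitted only with the labels as given.

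The starts of 3 members are shown because Car6 and Car5b rose together with TGF-beta, while Car9, the textbook hypoxia target, was not called. The RefSeq table of promoter windows (GRCm38.p6, 250 bases before to 50 after the start, 300 in all) held 5 of the 9 members: Car5b, Car6, Car9, Car12 and Car14. In each line below, capitals mark a match, on either strand, to 1 of 6 short motifs: the hypoxia element cores ACGTG and GCGTG, the AP-1 site TGANTCA, the SMAD box CAGAC, the C/EBP-ATF composite TGATGNAA and the STAT site TTCNNNGAA. For Car6 only a 30-base stretch around overlapping ACGTG matches is shown (chr4:150201267-150201296, minus strand). The reason is that 247 of the 300 window bases lie within the span of the gene in GENCODE M21. For Car5b (chrX:164027998-164028260, minus strand) and Car9 (chr4:43506776-43506965, plus strand) the part of the window before the outermost GENCODE exon is shown.
Car6: gaggaggtgaggCACGTGcacaggcaccaa
Car5b: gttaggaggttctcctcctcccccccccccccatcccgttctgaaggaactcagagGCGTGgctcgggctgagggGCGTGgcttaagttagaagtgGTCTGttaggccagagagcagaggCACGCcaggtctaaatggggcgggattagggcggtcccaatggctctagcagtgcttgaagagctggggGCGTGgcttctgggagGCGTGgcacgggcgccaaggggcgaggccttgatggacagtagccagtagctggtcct
Car9: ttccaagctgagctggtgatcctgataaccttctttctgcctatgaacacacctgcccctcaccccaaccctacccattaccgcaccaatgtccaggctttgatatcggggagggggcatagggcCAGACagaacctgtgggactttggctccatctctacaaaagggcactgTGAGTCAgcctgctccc

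The Car6 stretch holds CACGTG, which reads ACGTG on both strands, and its window also holds CAGAC at -196 and GCGTG at 43 relative to the RefSeq start, beyond the part shown. The Car5b stretch holds 5 matches to GCGTG and 1 to CAGAC. The Car9 stretch holds CAGAC and an AP-1 match at -77 from the RefSeq start, and a further ACGTG match lies at -18, beyond the part shown. Among 32851 promoter windows of the table, ACGTG was found in 19.62%, GCGTG in 32.39%, TGANTCA in 7.81%, CAGAC in 49.59%, TGATGNAA in 3.97% and TTCNNNGAA in 8.3%. None of the 5 members' windows held TGATGNAA or TTCNNNGAA. A match describes the letters of these windows only.

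Car6 (ENSMUSG00000028972, chromosome 4, 150187015 to 150201332 on the minus strand) was a low transcript in all media except CM plus neratinib. In the 5 control libraries it stood at 0.755, 0.894 and 0.811 CPM (PSC4 replicates 1, 2 and 3) and at 1.04 and 0.816 CPM (PSC5 replicates 1 and 2). In CM it stood at 1.43 and 0.776 CPM in PSC4 replicates 1 and 2 and at 1.07 and 1.27 CPM in PSC5 replicates 1 and 2. The ranges of control and CM overlap, and the means were 0.863 ± 0.111 (SD, n = 5) and 1.14 ± 0.281 CPM (SD, n = 4).

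With neratinib Car6 reached 54.3 CPM (1275 counts) in PSC4 replicate 1 and 45.1 CPM in PSC5 replicate 2, but 12.3 CPM in PSC4 replicate 2 and 7.35 CPM (170 counts) in PSC5 replicate 1. All 4 values lie above every other library, the next highest being 3.19 CPM. By the labels, the pair of high values and the pair of low values each hold 1 library of each line. PSC4 replicate 1, in the high pair, is among the libraries that lay beside PSC5 on the third principal component. The balance of lines therefore rests on its label. Against the CM library of the same line and number the ratios were 38.0, 35.4, 15.9 and 6.86 in the same order. The fitted log2 difference was 4.70 ± 0.53 (SE), or 25.9-fold, and this is the value that placed the family here. By the size of that difference Car6 stood at rank 8 of 13923 genes tested, and it led the 1185 genes that were called higher, had a symbol and a mean of at least 10 CPM with neratinib, and did not overlap within either line. Those conditions chose Car6, so its call, its lack of overlap with CM and its ratios above 1 were fixed by the choice and test nothing. The next gene under that rule was P2rx3, an ATP-gated channel, with a log2 difference of 3.75 ± 0.49. Over the alternatives the Car6 difference ranged from 4.16 to 5.04.

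**Figure D1:**
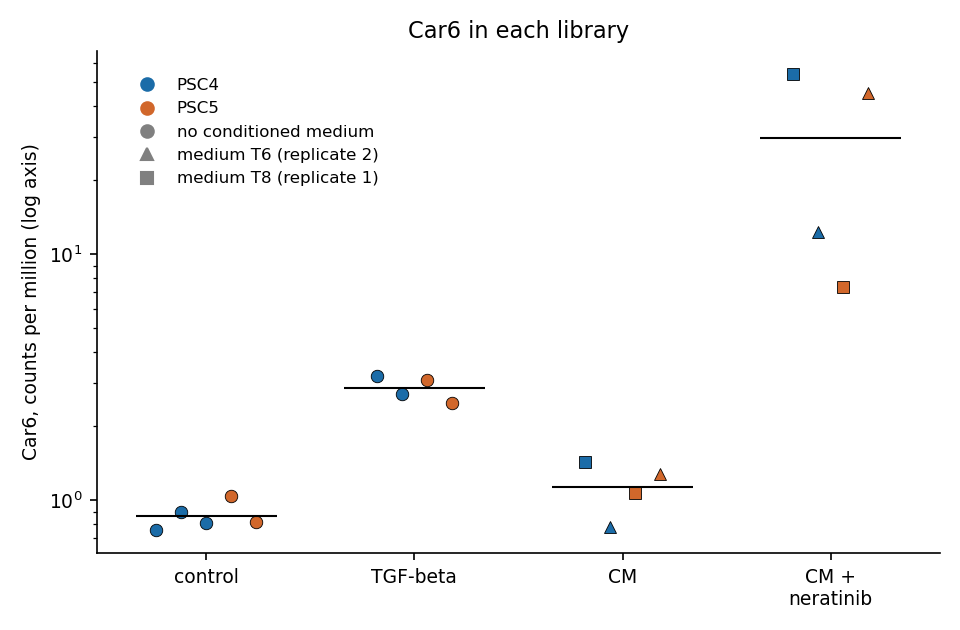
Car6 in CPM (log axis) in each of the 17 libraries, by group. Colours are the lines, shapes the code of the conditioned medium, and bars the group means; the 4 neratinib libraries spread from 7.35 to 54.3, and the TGF-beta libraries (2.48 to 3.19) lie above all control libraries (0.755 to 1.04).

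Car6 also rose with TGF-beta, and the TGF-beta libraries played no part in the contrast that chose it. The TGF-beta values were 3.19 and 2.71 CPM in PSC4 replicates 2 and 3 and 3.10 and 2.48 CPM in PSC5 replicates 1 and 2 (mean 2.87 ± 0.333, SD, n = 4). None overlaps control. The log2 difference was 1.73 ± 0.48 (SE), or 3.32-fold, with an adjusted p of 0.0103 (edgeR quasi-likelihood test, Benjamini-Hochberg over 13923 genes), and it stayed past the threshold in all 19 alternatives. The neratinib group, at 29.8 ± 23.4 CPM (SD, n = 4), varied far more between its libraries than the TGF-beta group.

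Of the 7 members that passed the filter, 4 were called higher with TGF-beta and none lower, where 40.2% of all genes tested were called, 19.7% higher and 20.5% lower. Their median log2 difference was 0.85, against -0.02 over all genes. Besides Car6 the members called were Car8, Car5b and Car2, an inactive, a mitochondrial and a cytosolic form. Car2 passed the filter through the groups in which it is high, so it could be called only higher. Its TGF-beta call was lost without TGF-beta PSC5 replicate 2.

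Car8 (ENSMUSG00000041261, chromosome 4, 8143362 to 8239041) showed the largest TGF-beta difference among the members tested. It stood at 4.77 and 5.53 CPM in PSC4 and at 2.15 and 3.66 CPM in PSC5, against 0.390 to 0.682 CPM in control. All 4 TGF-beta values lie above all 5 controls, and the fitted log2 difference was 2.82 ± 0.61 (SE), or 7.05-fold (adjusted p = 0.00188, edgeR). Another annotated gene, Gm11799, overlaps Car8 on the same strand, so reads of the shared part may be divided between them.

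Car5b (ENSMUSG00000031373, X chromosome, 163976822 to 164027997) was the mitochondrial form of these cells, with Car5a at 7 counts in all libraries together. It was at 69.4 and 70.2 CPM in PSC4 and 60.2 and 35.6 CPM in PSC5 with TGF-beta, and at 24.95, 29.6 and 35.9 CPM (PSC4) and 35.0 and 37.9 CPM (PSC5) in control. Of the TGF-beta libraries only PSC5 replicate 2 lies within the control range. The log2 difference was 0.85 ± 0.19 (SE), with an adjusted p of 0.00291 (edgeR). In CM (18.4 to 24.1 CPM) and in CM plus neratinib (14.2 to 23.5 CPM) every Car5b value lies below every control. The CM difference of -0.53 ± 0.20 did not pass the threshold (adjusted p = 0.0907, edgeR; it was past it, at 0.0277, with only the groups compared in the fit). With CM plus neratinib Car5b was lower than in control (log2 -0.69 ± 0.20, adjusted p = 0.0124, edgeR), and without the 3 libraries labelled PSC4 replicate 1 this call was lost (-0.52, adjusted p = 0.0738). Between CM with and without neratinib the fitted difference was -0.17 ± 0.21.

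Car13 (ENSMUSG00000027555, chromosome 3, 14641727 to 14663002) was the most abundant member per length in every group. Scaled by exon length it held 21.9 ± 2.45 CPM per kilobase in control (SD, n = 5), ahead of Car5b at 5.14 ± 0.835, and it made up 71.3% ± 1.73 of the per-length level of the whole family there. With neratinib that share was 64.2% ± 11.9 (SD, n = 4), while Car6, at 1.56% ± 0.203 in control, made up 25.1% ± 14.4 and Car5b 6.13% ± 2.68. With TGF-beta the shares were 56.4% ± 7.8 for Car13 and 27.9% ± 7.05 for Car5b. No test was run on these shares.

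In CPM, Car13 lay at 42.5 to 55.8 in control, 38.0 to 47.8 with TGF-beta, 50.7 to 74.6 in CM and 64.5 to 108 in CM plus neratinib. Every neratinib library lies above every control. The log2 difference between them was 0.71 ± 0.14 (SE), with an adjusted p of 0.00103 (edgeR), and it passed in all 19 alternatives. In CM, 3 of 4 libraries (72.0 to 74.6 CPM) stood above all controls, and PSC4 replicate 2, at 50.7 CPM, stood among them. The CM difference of 0.42 ± 0.14 had an adjusted p of 0.0556. It was past the threshold with the replicate number as a block (0.37 ± 0.08, adjusted p = 0.00860), without the 3 libraries labelled PSC4 replicate 1 (adjusted p = 0.00337), without CM PSC4 replicate 2 (0.53, adjusted p = 0.0270) and by DESeq2 (adjusted p = 0.0236). With TGF-beta the difference was -0.25 ± 0.14 (adjusted p = 0.163). It was called without the 3 libraries labelled PSC4 replicate 1 (-0.22, adjusted p = 0.00635) and with only the groups compared in the fit (-0.26, adjusted p = 0.0145).

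Car2 (ENSMUSG00000027562, chromosome 3, 14886273 to 14900770) lies about 245 kb from Car13 in a cluster that also holds Car3 and Car1. It is the fast, widespread form, but was scarce in these cells. Control libraries held 4 to 8 counts (0.143 to 0.287 CPM). CM libraries held 9, 18, 21 and 19 counts (0.318 to 0.727 CPM) and CM plus neratinib libraries 14, 13, 34 and 13 counts (0.545 to 1.56 CPM), all above every control. The difference from control was 1.62 ± 0.46 (log2, SE) with CM plus neratinib (adjusted p = 0.0108, edgeR) and 1.22 ± 0.46 with CM (adjusted p = 0.0899, edgeR). With 4 to 8 counts in control, Car2 passed the filter through the groups in which it is high, and with only the groups compared it was left out for TGF-beta and for CM, so its calls were open only to a rise. With TGF-beta the counts were 7, 10 and 12, and 46 (1.87 CPM) in PSC5 replicate 2. The TGF-beta difference of 1.41 ± 0.46 was called (adjusted p = 0.0240), but not without TGF-beta PSC5 replicate 2 (0.72, adjusted p = 0.168), nor without control PSC5 replicate 1 (adjusted p = 0.0642) or control PSC5 replicate 2 (adjusted p = 0.06996). Car3, its neighbour, had 1 count in all 17 libraries and was not tested.

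**Figure D2:**
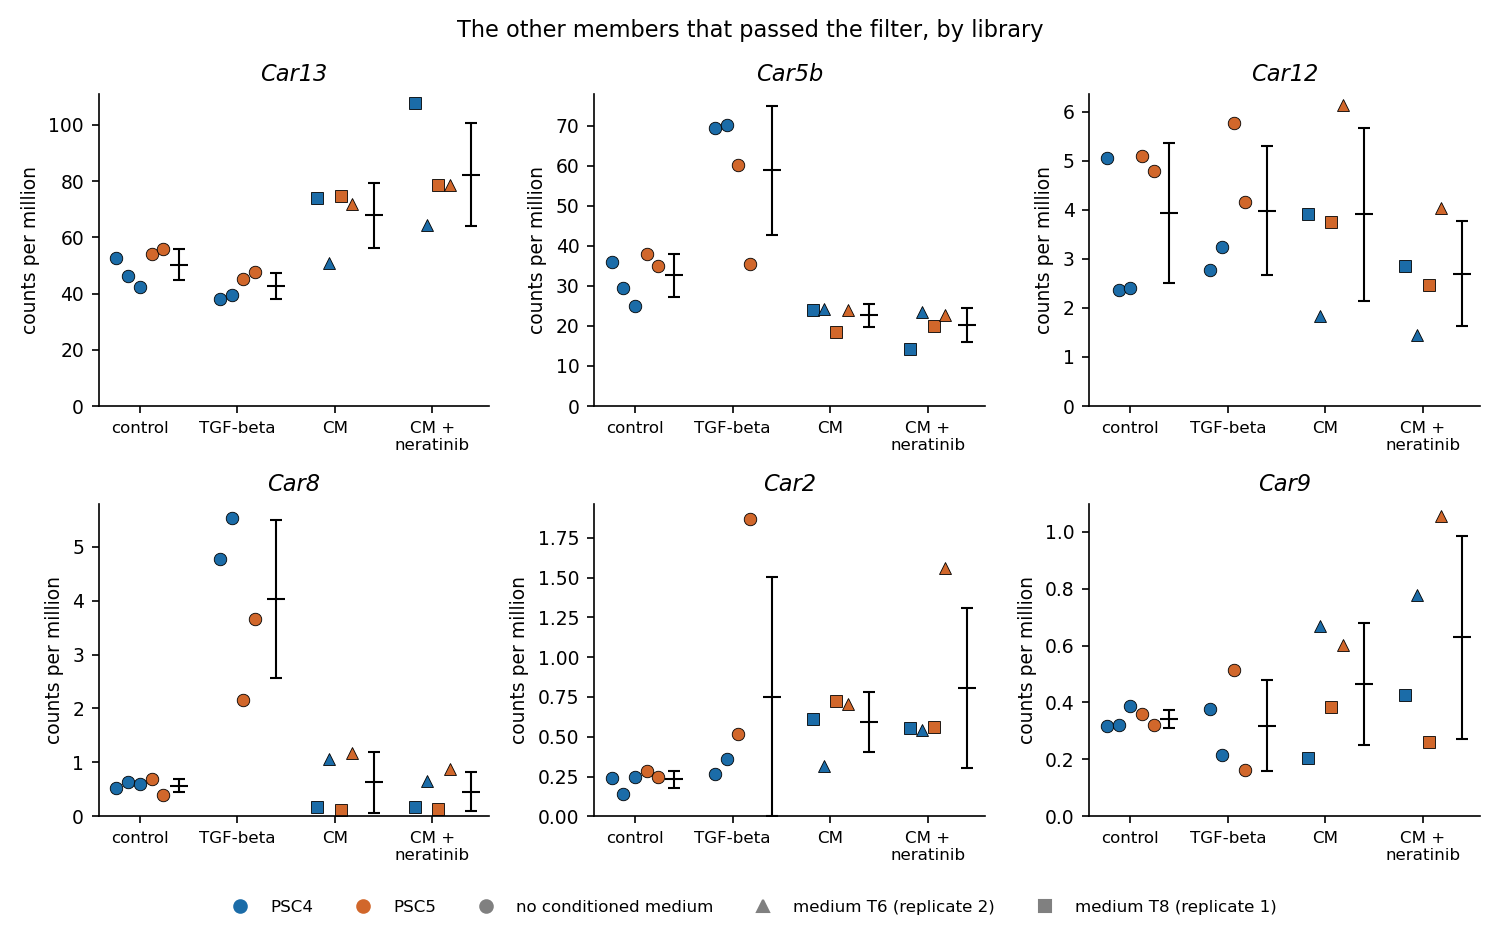
CPM of Car13, Car5b, Car12, Car8, Car2 and Car9 in each library, with the group mean and SD beside the points; colours are the lines and shapes the medium code. Car8 is high only with TGF-beta (2.15 to 5.53), and the group means of Car5b and Car13 stand in opposite order.

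Across the 17 libraries the log2 CPM of Car5b and Car13 had a Pearson r of -0.827, those of Car5b and Car8 0.806 and those of Car8 and Car13 -0.738. These libraries share group means, so the values describe the same group pattern and are given without a p.

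Counted over members, CM against control gave 0 calls among 6 tested by edgeR, where 14.2% of all genes were called. At an unadjusted p under 0.05 there were 3 (Car2, Car5b and Car13). DESeq2 called 1 (Car13), among 2695 of 13923 genes. CM plus neratinib against control gave 3 calls among 6 tested, 2 higher (Car2 and Car13) and 1 lower (Car5b), where 43.1% of all genes were called, 22.2% higher and 20.9% lower. Car2 could be called only higher, since it passed the filter through the groups in which it is high. The 3 comparisons share the control libraries.

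**Figure D3:**
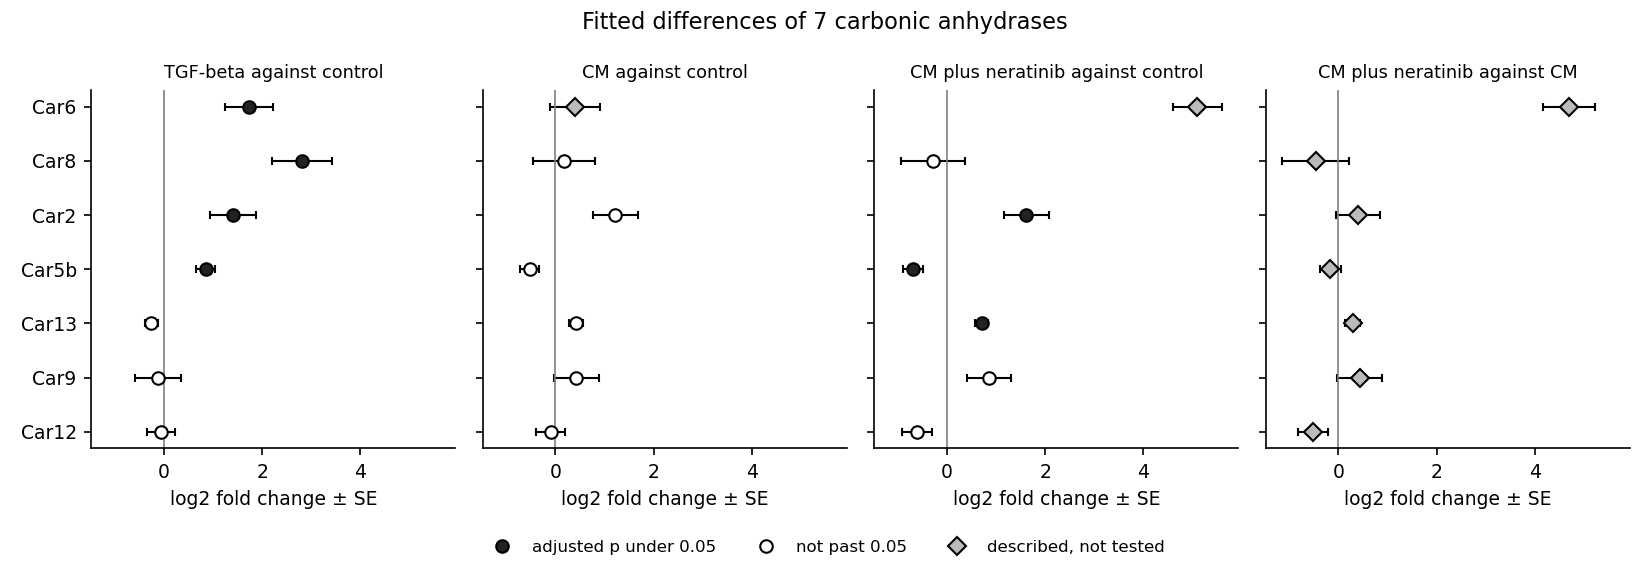
Fitted log2 fold changes with standard errors of the 7 members that passed the filter, in 4 comparisons. Filled circles are past an adjusted p of 0.05, open circles are not, and grey diamonds are described without a test; Car6 stands at 4.70 for CM plus neratinib against CM and 1.73 for TGF-beta against control.

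Among the membrane forms, Car12 (ENSMUSG00000032373, chromosome 9, 66713686 to 66766845) was not called against control, with log2 values of -0.06 ± 0.29 for TGF-beta (adjusted p = 0.890, edgeR) and -0.10 ± 0.29 for CM (adjusted p = 0.860, edgeR). It was at 2.36 and 2.40 CPM in control PSC4 replicates 2 and 3, and at 5.10 and 4.79 CPM in control PSC5. Control PSC4 replicate 1, one of the libraries that stood with PSC5, was at 5.05 CPM. With CM plus neratinib Car12 was 1.44 to 4.03 CPM, and below the CM library of the same line and number in all 4 pairs (ratios 0.657 to 0.785). Against control this gave -0.61 ± 0.30 (adjusted p = 0.110), past the threshold with the replicate block (-0.67 ± 0.20, adjusted p = 0.0143) and without the 3 libraries labelled PSC4 replicate 1 (-0.64, adjusted p = 0.0499) or with them counted as PSC5 (-0.68, adjusted p = 0.00879).

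Car14 (ENSMUSG00000038526, chromosome 3, 95897768 to 95904691) did not pass the filter. It had 1, 23, 13, 9 and 5 counts in the control libraries, at most 1 count with TGF-beta, 2 to 6 in CM and 0 to 4 in CM plus neratinib. Control PSC4 replicate 1, with 1 count, overlaps the TGF-beta libraries. With no filter, over 22704 genes, edgeR called it lower with TGF-beta (adjusted p = 0.00432) and with CM plus neratinib (adjusted p = 0.0386). Aph1a overlaps it on the other strand, and whether the counting used strand is not given in the sources used here.

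Car9 (ENSMUSG00000028463, chromosome 4, 43506966 to 43513729) was a rare transcript, with 4 to 23 counts per library. Control libraries spanned 0.318 to 0.388 CPM and TGF-beta libraries 0.163 to 0.516 CPM, which overlap. The log2 difference was -0.12 ± 0.47 for TGF-beta (adjusted p = 0.862), 0.43 ± 0.45 for CM (adjusted p = 0.571) and 0.86 ± 0.45 for CM plus neratinib (adjusted p = 0.133, and 0.0468 without CM plus neratinib PSC5 replicate 1).

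In the edgeR fit with the line as a term, neither Car9 nor Car12 was called in the comparisons in which most of a list of hypoxia response genes was; the alternatives that call either with CM plus neratinib are given above, beside each gene. Of 24 listed genes (glycolytic enzymes, Vegfa, Pdk1 and others), TGF-beta raised 18 and lowered 2 past the threshold. CM raised 16 and lowered 0, where 7.05% of all genes tested were called higher and 7.14% lower. CM plus neratinib raised 20 and lowered 0, where 22.2% of all genes tested were called higher and 20.9% lower. The median log2 differences of the listed genes were 1.12, 0.66 and 1.18, against -0.02, -0.0004 and 0.005 over all genes. Egln3, an oxygen-sensing hydroxylase, was at 20.9 ± 12.8 CPM with TGF-beta (SD, n = 4) and 4.87 ± 0.540 in control (SD, n = 5). Ankrd37, Pdk1 and Vegfa were the other named risers with TGF-beta, at 2.17, 1.91 and 1.72 on the log2 scale, while Adm and Stc2 fell by 2.57 and 0.85. In CM the leading genes were Stc2, Ankrd37, Pdk1 and Bnip3 (2.10, 1.47, 1.34 and 1.19), and in CM plus neratinib Stc2, Ero1l, Hk2 and Fam162a (2.86, 1.77, 1.72 and 1.69). Whether Car9 differs from these genes was not tested, and with 4 to 12 counts in the TGF-beta libraries its standard error leaves a wide range.

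**Figure D4:**
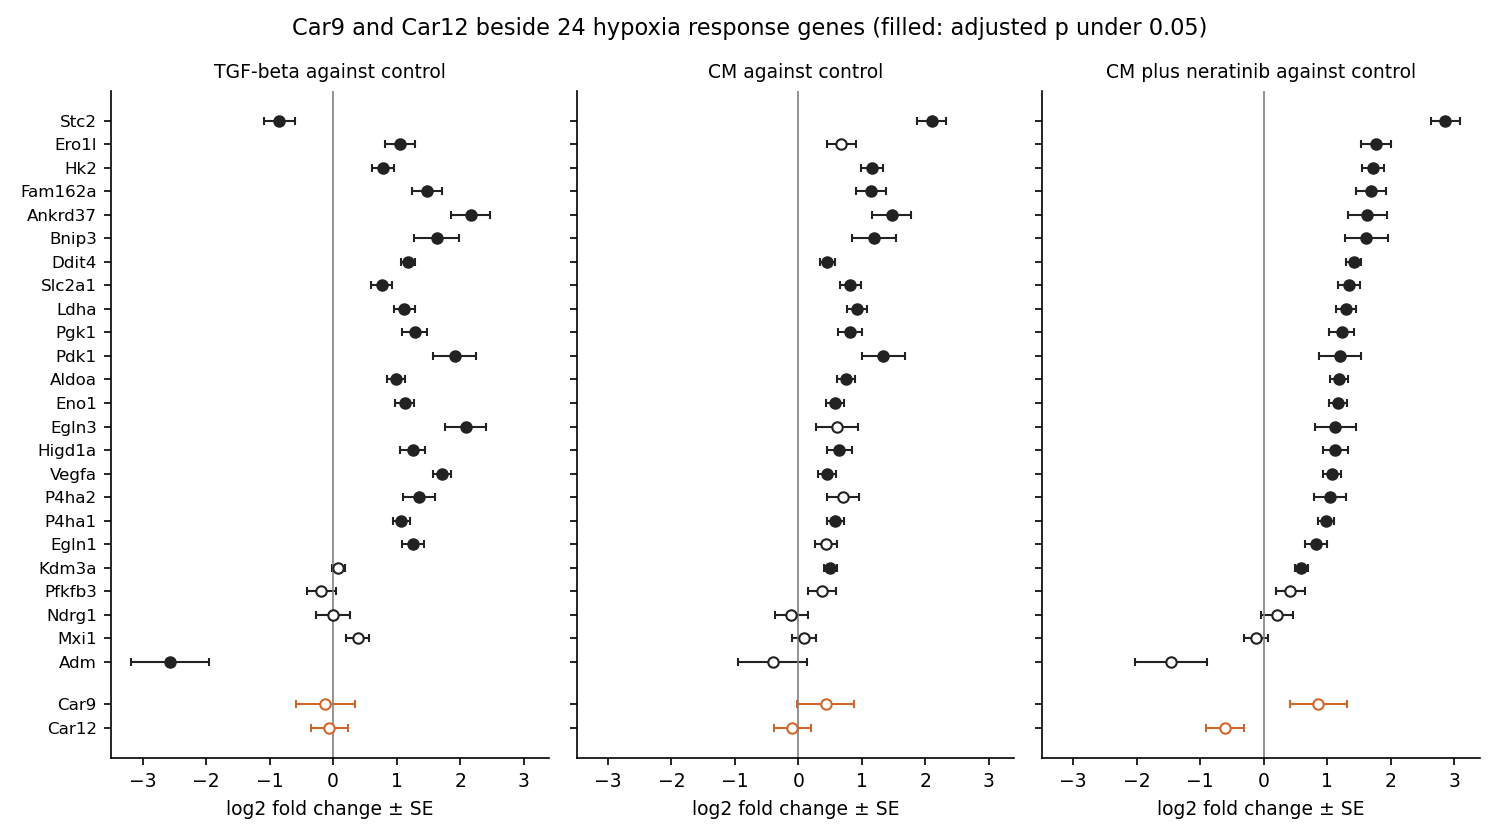
Log2 fold changes against control with standard errors of 24 hypoxia response genes (black) and of Car9 and Car12 (orange), filled where the adjusted p is under 0.05. With TGF-beta 18 black points are filled to the right of 0, while Car9 (-0.12) and Car12 (-0.06) sit near 0.

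The partners of these enzymes in acid and bicarbonate transport were counted as a list of 23 genes, 15 of them tested. With TGF-beta 5 rose and 3 fell, where 19.7% of all genes rose and 20.5% fell. With CM 2 rose and 1 fell (7.05% and 7.14% of all genes), and with CM plus neratinib 5 rose and none fell (22.2% and 20.9% of all genes). Slc16a3, the lactate exporter of glycolytic cells, rose in all 3 comparisons, from 4.72 ± 0.746 CPM in control to 102 ± 72.5 with TGF-beta, 42.6 ± 23.3 in CM and 51.2 ± 17.6 in CM plus neratinib. Slc16a1, the other main lactate transporter, rose with CM (log2 1.95 ± 0.15, adjusted p = 3.38e-06, edgeR) and with CM plus neratinib (1.95 ± 0.15). Bsg, the chaperone of both transporters, rose with TGF-beta (0.66 ± 0.16) and CM plus neratinib (0.72 ± 0.16). The sodium bicarbonate cotransporter Slc4a7 rose with TGF-beta (0.68 ± 0.15), as did Slc9a2 (1.60 ± 0.60), and the anion exchanger Slc26a6 rose with CM plus neratinib (0.34 ± 0.13). Slc9a2 was scarce, at 0.165 ± 0.115 CPM in control and 0.494 ± 0.309 with TGF-beta. It passed the filter through other groups than control, so its call was open only to a rise. Slc9a3, Slc4a8 and Slc4a3 fell by 3.66, 0.41 and 0.34 with TGF-beta. Between CM plus neratinib and CM, where 10.8% of all genes were called higher and 9.63% lower, only the proton exchanger Slc9a5 of this list was called, at 26.2 ± 5.19 against 18.1 ± 2.24 CPM (log2 0.54 ± 0.13), and 7 of the 24 hypoxia genes were called higher, led by Ero1l (1.10) and Ddit4 (0.96), then Stc2 (0.76) and Vegfa (0.63). Slc9a5 fell by 0.55 in CM against control.

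Within the conditioned media, Car8 and Car9 separated by the medium code in the titles rather than by neratinib. The labels do not say what the codes T6 and T8 stand for, and every T6 library has the number 2 and every T8 library the number 1, so within the conditioned libraries code, number and passage coincide; only the libraries without conditioned medium hold the numbers apart from the code. Car8 was at 1.06, 1.17, 0.662 and 0.871 CPM in the 4 T6 libraries (17 to 35 counts) and at 0.170, 0.115, 0.170 and 0.130 CPM in the 4 T8 libraries (3 to 5 counts). Control libraries, at 0.390 to 0.682 CPM with numbers 1 and 2 mixed, lie above every T8 library and overlap the lowest T6 library. Car9 was at 0.604 to 1.05 CPM in T6 and 0.204 to 0.426 CPM in T8. Neither gene overlaps between the codes, and 2.95% of all genes tested had every T6 library above every T8 library. Car9 held 18 to 23 counts in T6 libraries, 6 to 10 in T8, 8 to 11 in control and 4 to 12 with TGF-beta. It passed the filter at 10 counts mainly through the T6 libraries, so its separation was open mainly to this direction.

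Both genes were chosen for this after their values were seen. In a fit with the code as a term beside the replicate block, edgeR gave a log2 difference of 2.44 ± 0.51 for Car8 (adjusted p = 0.300) and 1.61 ± 0.54 for Car9 (adjusted p = 0.692), and 0% of 13923 genes were called (906 at an unadjusted p under 0.05, these 2 members among them). Epithelial marker RNA moved with the code as well. The 18 markers summed to 152 to 336 CPM in T6 libraries, 12.3 to 55.3 in T8 and 16.9 to 28.9 in the 9 libraries without conditioned medium, and Krt8 had 972 to 2052 counts in T6 and 0 to 219 in T8. In bulk RNA, fewer cells of a type and less RNA per cell cannot be told apart, and the part of epithelial RNA in the Car8 and Car9 values was not tested. Of the 14 epithelial markers tested, CM plus neratinib gave 12 and CM 9 called higher than control (22.2% and 7.05% of all genes), and CM plus neratinib against CM gave 0 by edgeR and by DESeq2 (1 at an unadjusted p under 0.05 in each).

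**Figure D5:**
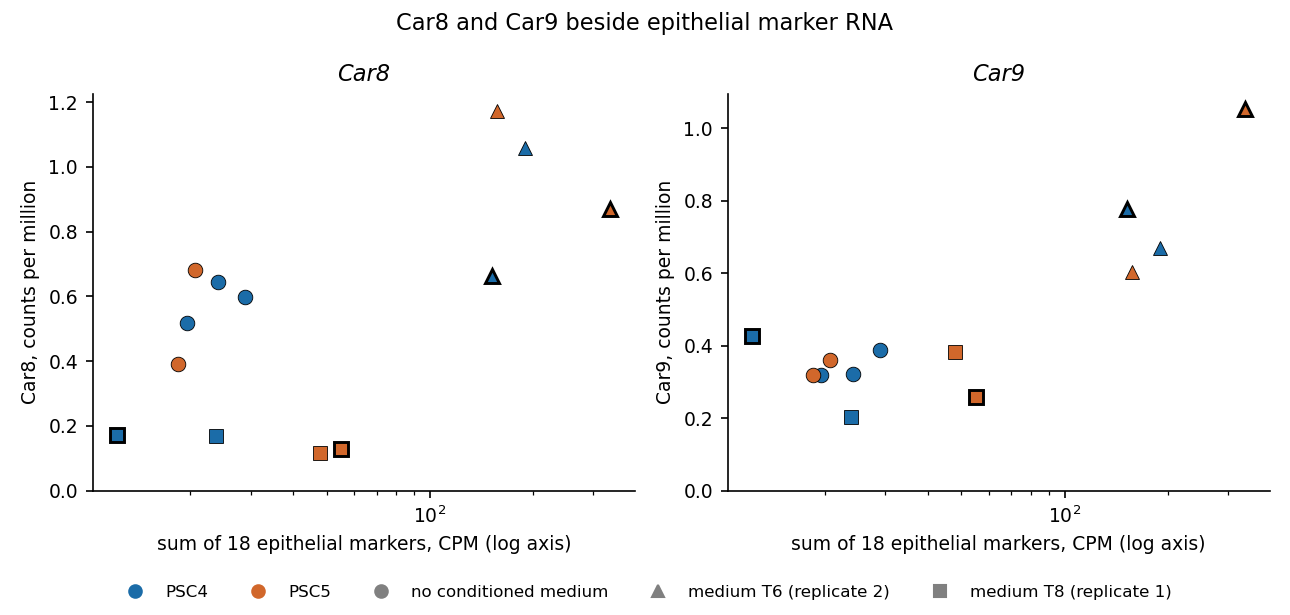
Car8 and Car9 in CPM against the sum of 18 epithelial markers (CPM, log axis) in the control, CM and CM plus neratinib libraries; thick outlines mark neratinib. The T6 libraries (triangles) lie at 152 to 336 CPM of markers and above the T8 libraries (squares) in both genes.

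The lines PSC5 and PSC4 gave 0 calls among the 7 members tested by edgeR, where 6.97% of all genes were called. At an unadjusted p under 0.05 there were 2, Car12 (log2 0.67 ± 0.21 higher in PSC5, adjusted p = 0.0643) and Car2 (0.96 ± 0.33, adjusted p = 0.0763), and DESeq2 called Car12. With the replicate block edgeR called both (Car12 0.71, adjusted p = 0.00348, and Car2 0.88, adjusted p = 0.0378), among 4019 of 13923 genes. DESeq2 called 2207 of 13923 genes. Without the 3 libraries labelled PSC4 replicate 1, Car12 (1.04, adjusted p = 0.000483), Car2 (1.19, adjusted p = 0.0240) and Car13 (0.34, adjusted p = 0.000102) were called by edgeR. That fit called 5980 of 14049 genes in all, instead of 970 of 13923. The added member calls thus came with more calls over all genes. With the lines as labelled, no treatment difference was found to depend on the line. The interaction fit was not repeated without the 3 libraries labelled PSC4 replicate 1 or with them counted as PSC5. Whether those labels hide a dependence was not tested. For TGF-beta, CM and CM plus neratinib alike, 0% of genes had an interaction with the line past the threshold by edgeR, and among the members only Car5b with TGF-beta had an unadjusted p under 0.05 (-0.82 ± 0.36 on the log2 scale, PSC5 minus PSC4), which did not pass after adjustment. Over all genes 601, 43 and 260 had an unadjusted p under 0.05.

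The genes whose pattern over the 17 libraries was most like that of Car6, among 10235 candidates with at least 10 CPM in the highest group, were Cyb5r1 (Pearson r = 0.984 of log2 CPM), Trim35 (0.977), Psph (0.976), Chac1 (0.973) and Vdac3 (0.967). Chac1 encodes a glutathione-degrading enzyme, Psph the last enzyme of serine synthesis, Vdac3 a channel of the outer mitochondrial membrane and Cyb5r1 a cytochrome b5 reductase. Chac1 was at 12.5 ± 1.03 CPM in control, 23.9 ± 3.16 with TGF-beta, 17.0 ± 1.34 in CM and 67.1 ± 24.02 with neratinib. All 5 placed the 4 neratinib libraries in the same order as Car6, and in all 5 the lowest neratinib library lies above the highest of the other libraries (for Chac1, 47.8 and 28.4 CPM). They were picked for this likeness, so it is a description.

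The other members had nearest genes of their own: Mtmr11 (0.963) and Hhat (0.951) for Car5b, Btbd3 (0.971) and Smug1 (0.965) for Car13, Serinc2 (0.966) and Neto2 (0.952) for Car8, Cd2ap (0.907) and Ccnd1 (0.898) for Car12, and Lyar (0.850) and Tyw1 (0.831) for Car2. Car9 had the lowest likeness, to AI597479 (0.716) and to Krt19 (0.773), which is 1 of the 18 epithelial markers. No gene named here is nearest to more than 1 member.

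Of the carbonic anhydrases outside these 9, Car1 and Car4 had no count in any library and Car10 had 1 count. Car7 (6 to 43 counts per library), Car11 (17 to 99) and Car15 (10 to 38) were tested. Car11, an inactive form like Car8, was at 1.02 to 1.64 CPM with CM plus neratinib against 2.02 to 3.49 in control and was called lower (-1.06 ± 0.32, adjusted p = 0.0159, edgeR), while Car7 and Car15 were called in no comparison. Car7, a cytosolic form, reached its highest value of 1.83 CPM in the neratinib library PSC4 replicate 1, where Car6 was also highest. That library also held the highest sums of immune markers (13.5 CPM, against 2.88 to 3.72 in the other neratinib libraries) and of endothelial markers (32.0 CPM, against 3.63 to 10.4), and the part of these in its Car6 value was not tested. In the other neratinib libraries Car6 was 45.1 CPM (PSC5 replicate 2), 12.3 CPM (PSC4 replicate 2) and 7.35 CPM (PSC5 replicate 1).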

How the data were processed

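Messenger RNA libraries were made from total RNA, and the submitters' processing notes name Salmon 1.4.0, DESeq 2 and the builds GRCm38 and mm10, without saying how each was used. As deposited, each library has a file of expected counts by Ensembl ID, which the authors estimated and did not scale. They were rounded to whole numbers, which moved a library total by at most 300.9 counts; 74.8% of the values above 0 were not whole. Of 35896 IDs, 35437 matched a symbol and a GENCODE M21 position.

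All 17 libraries entered 1 fit in edgeR 4.0.16 (R 4.3.3) with group and line as terms, TMM factors and filterByExpr (10 counts, total 15), which kept 13923 genes and 7 of the 9 members. Differences were tested by the quasi-likelihood test, adjusted by Benjamini-Hochberg over all 13923 genes, and called at an adjusted p under 0.05; errors after ± are standard errors for log2 differences and SDs for CPM. CPM uses the TMM-scaled totals, and log2 CPM for patterns a prior count of 2. The biological coefficient of variation was 19.8%, and the script was tested on simulated data. No replicates were duplicates (smallest chi-square per degree of freedom 7.54). That closest pair was control PSC4 replicate 1 and control PSC5 replicate 2, which differ in line by their labels. Control PSC4 replicate 1 stood at 47.4 from control PSC4 replicate 2 and at 60.7 from replicate 3.

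Labels give the same passage to libraries of 1 line and number, and all 22 pairs of them from different groups deviated together (lowest r 0.12, median 0.30; 32 pairs of other numbers in a line, median -0.08), so the block of line and number is an alternative that pairs cultures. The numbers pair the cultures only in part. CM PSC4 replicate 2 had an r of 0.613 with control PSC4 replicate 3 and 0.602 with control PSC4 replicate 2. With the line mean removed, 11 of 22 stayed above 0.1. In PSC5, equal numbers of CM and CM plus neratinib then gave 0.326 and 0.184. All PSC5 pairs of equal number with a control or TGF-beta library lay between -0.222 and -0.018. DESeq2 1.42.0, other factors, filters and terms, and leaving out libraries were the other alternatives.

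The members, lists and tests were chosen with earlier results of these data known. All 9 members are described; of the lists, up to 4 called genes per direction with the largest difference are named, and the nearest genes by Pearson r (5 for Car6, 2 for the others). Marker lists for adipocytes (12 genes, sums 15.9 to 224 CPM) and skeletal muscle (10 genes, sums 0.688 to 7.84 CPM) were also summed. No protein sequence was used here.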

Additional observations from a re-analysis of the deposited data

Results flagged for a closer look

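Of 31 sets of 4 or 5 libraries (a member in a group), 4 had 1 library far from the others by Dixon's test at 95%, where about 1 in 20 is flagged by chance. Car2 was at 1.871 CPM (46 counts) in TGF-beta PSC5 replicate 2, with the other 3 at 0.263 to 0.516 CPM. Car2 was again highest in number 2 of PSC5 with CM plus neratinib, at 1.558 CPM (34 counts) against 0.545 to 0.562 CPM. Both libraries are passage 28, while control and CM of that passage held 0.248 and 0.704 CPM. Car5b, the mitochondrial form, was lowest in CM PSC5 replicate 1 at 18.44 CPM, with the others at 23.98 to 24.13 CPM. Car13 was lowest in CM PSC4 replicate 2 at 50.7 CPM, with the others at 71.97 to 74.62 CPM.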

How the results depend on the processing

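Of 26 member differences with a test, 8 kept direction and side of the threshold in every alternative. Among them were Car5b, Car6 and Car8 with TGF-beta and Car2 and Car13 with CM plus neratinib. For Car2 only a rise could be called. Of the 9 differences without a test, 8 kept their direction. For CM against control, DESeq2, the replicate block, and removing the 3 libraries labelled PSC4 replicate 1 or counting them with PSC5 each gave 1 member called (Car13), and only the groups compared gave 2. For PSC5 against PSC4 DESeq2 gave 1, the replicate block 2, and removing those 3 libraries or counting them with PSC5 gave 3 each. Leaving out 1 library at a time gave 0 to 1 for CM and 0 to 2 for the lines. The replicate block also changed the call of Car12 for CM plus neratinib against control, and no other member call. Car12 with TGF-beta turned from -0.06 to 0.14 with the replicate block, 0.016 with no line term, 0.17 without the 3 libraries and 0.17 with them counted as PSC5 (0.165), and lay between -0.16 and 0.16 (0.163) leaving out 1 library. Car8 in CM turned to -0.069 with the replicate block, and lay between -0.45 and 0.54 leaving out 1 library; with CM plus neratinib against control it was 0.011 without the 3 libraries and lay between -0.88 and 0.040. For the lines, Car6 was 0.38 without the 3 libraries and 0.49 with them counted as PSC5, and Car9 was -0.13 and -0.26 in the same order. Leaving out 1 library, the line difference lay between -0.31 and 0.26 for Car6, -0.092 and 0.27 for Car9 and -0.12 and 0.050 for Car5b. In the same way Car12 in CM lay between -0.28 and 0.13, Car9 with TGF-beta between -0.43 and 0.10, and Car8 with CM plus neratinib against CM between -1.09 and 0.22. The cause was not tested, and none of these reversing differences was called. Over all genes, the calls between the lines went from 970 to 4019 with the replicate block, 2207 by DESeq2, 5980 without the 3 libraries and 6046 with them counted as PSC5, and those for CM from 1976 to 3240 with the block. A filter at 30 counts left Car2 and Car9 out, and no filter added Car14 for TGF-beta and for CM plus neratinib. Depth limits Car2, Car9 and Car14, at 0 to 46 counts a library, and Car3, with 1 count in all libraries, could not be tested.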
